A study of Mus musculus with 11 samples.

Results

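The genes described here are the collagens, laminins and other extracellular matrix genes of the mouse colon. They were chosen by symbol: every numbered collagen and laminin chain, both nidogens, the 4 Timp genes and the numbered fibulins, plus Fn1, Eln, Dcn, Lum, Bgn, Postn, Sparc, Fbn1, Pdgfra and Pdgfrb. The rule took 76 of the 22243 genes in the table, with 89 of its 28808 transcripts, and used no measured value. It was set with earlier results of these data known. By role, 21 are basement membrane genes, 26 are interstitial collagens, 12 are interstitial glycoproteins and proteoglycans, 10 are other collagens, 4 are protease inhibitors and 2 are growth factor receptors. The remaining match, Col4a3bp, encodes a ceramide transfer protein and is no collagen.

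The basement membrane is a thin sheet under epithelia and around blood vessels, smooth muscle and nerves, in which networks of laminin trimers and type IV collagen are joined by nidogens. The interstitial matrix between cells is built from fibrils of type I, III and V collagen with type VI microfibrils, elastin and small proteoglycans, and is made mostly by fibroblasts and smooth muscle. In the gut wall, epithelial cells contribute laminin chains to their own basement membrane, and the surrounding mesenchyme contributes most of the collagen.

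RNA was measured in distal colon of full thickness, so that mucosa, muscle and serosa were in one sample. The groups were 6 wild-type (WT) mice and 5 mice with both copies of Nrg4 knocked out (KO), the gene for the ErbB4 ligand neuregulin-4. All were adults of 11 to 12 weeks from cages in which the genotypes had been mixed at 9 weeks. Mice WT-5, WT-7, KO-1 and KO-8 shared cage A, mice WT-2, WT-11, KO-4 and KO-9 shared cage B, and cage C had WT-6, WT-10 and a single KO mouse, KO-3. Both sexes were used, but the labels give no sex for a mouse, no strain and no account of how the allele was made. No label says more of how the mice of a group were related, so p-values measure the spread between these animals.

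Levels are in TPM, transcript abundances scaled for transcript length and library total, and are given as mean ± SD. TPM keeps no record of sequencing depth, so the depth is unknown and no counting interval is given. The summed TPM of a mouse was 558446 to 770986, and mitochondrially encoded genes took 19.02% of it in KO-1 and 42.9% in KO-3, the lowest and highest shares. Nrg4 was listed at 0 TPM in all 11 mice and so did not check the genotype labels. The Y-linked Eif2s3y was at 21.5 TPM or above in the 4 mice from cage A and at 0.0523 TPM or below elsewhere, so sex and cage A cannot be told apart. The 10 epithelial marker genes summed to between 6490 and 11054 TPM and the smooth muscle markers to between 3095 and 5995 TPM, as full-thickness colon would hold. In such bulk tissue, fewer cells of a type and less RNA per cell cannot be told apart.

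The first question was whether matrix genes differed between KO and WT colon. Of the 76 genes, 36 had at least 1 TPM in at least 5 mice and were tested. None of them passed the threshold, a false discovery rate (FDR) of 0.05 over all 10756 genes tested (limma with cage as a term, Benjamini-Hochberg adjustment, every FDR of a matrix gene 1.00), where 0.0372% of all genes passed. At an unadjusted p below 0.05 there were 3 matrix genes, 8.33% of the 36, beside 3.1% of all genes. Of these 1 was higher in KO, Col4a1, as 1.06% of all genes were at this p, and 2 were lower, Postn among them, as 2.04% were. The KO and WT values of each tested matrix gene overlapped (0 of 36 without overlap), beside 0.223% of all genes without overlap. The KO mean on the fitted log2 scale was above that of WT for 25 of the 36 (69.4%), beside 46.8% of all genes, and the median log2 fold change was 0.09 for matrix genes and -0.01 for all genes. The count moved with single mice. It was 11 of 36 without WT-7, beside 45.1% of all genes in that fit, 27 of 34 without WT-5, beside 47.2%, and 20 of 34 without both, beside 46.9%. Log2 fold changes are of TPM + 0.5, KO against WT, with the standard error of the fit after ±.

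**Figure D1:**
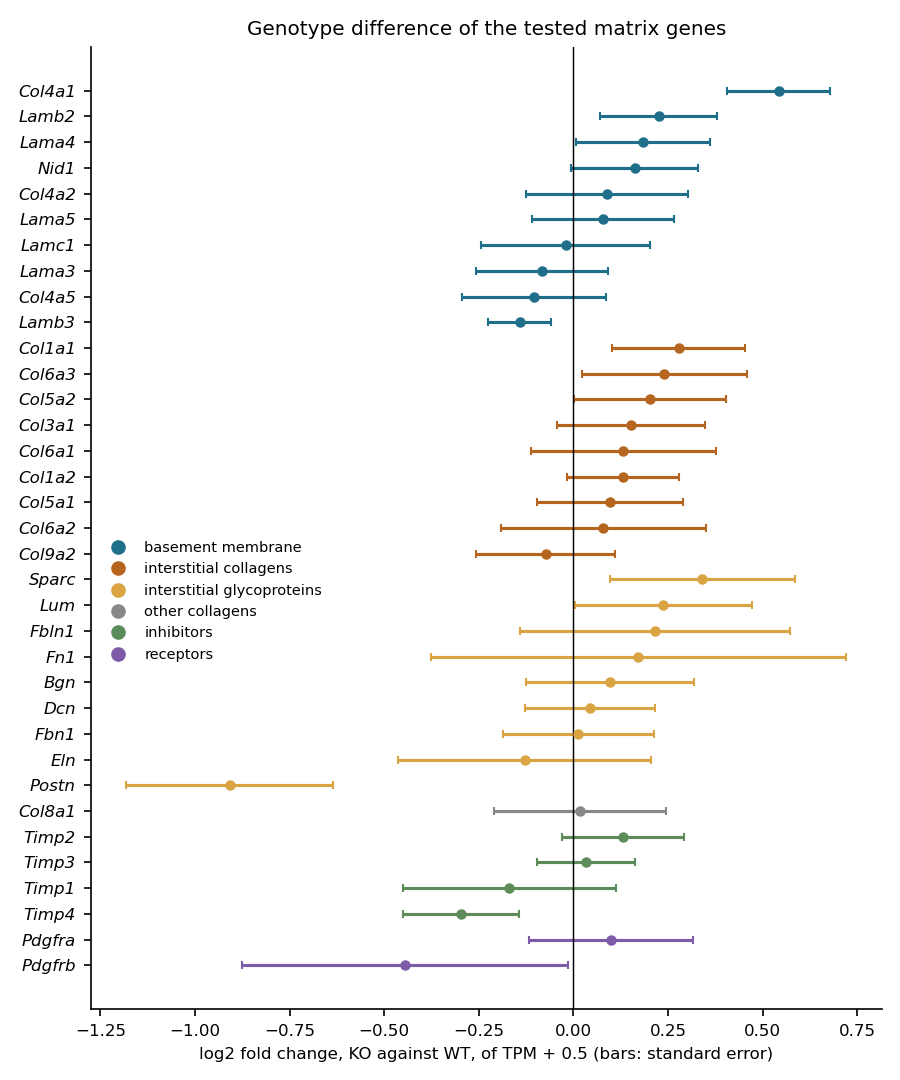
Log2 fold change of TPM + 0.5, KO against WT, for 35 of the 36 tested matrix genes, one row a gene in the colour of its class, with bars of 1 standard error. Col4a1 lies farthest to the right at 0.54, Postn farthest to the left at -0.91, and most interstitial collagens lie slightly right of 0.

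Among the laminins, Lama3 and Lamb3 encode chains of the laminin that anchors epithelial cells through hemidesmosomes, and neither passed the test. Lamb3 (chromosome 1, 193207699 to 193343878, plus strand, mm10) is on average the most abundant laminin gene and second among all matrix genes. It was at 41.7, 36.4, 42.1, 36.5, 45.9 and 48.6 TPM in WT-2, WT-5, WT-6, WT-7, WT-10 and WT-11 and at 38.4, 35.3, 38.3, 37.5 and 38.5 TPM in KO-1, KO-3, KO-4, KO-8 and KO-9, the order of mice used below. The groups overlapped through the WT mice of cage A, and the log2 fold change was -0.14 ± 0.08. Its principal transcripts differed in sign: ENSMUST00000159955, the main one, had a log2 ratio of -0.27 in the authors' deposited table and ENSMUST00000016315 one of 0.71. The latter was near 0 in WT-6 and KO-9, where nearly all of the signal was assigned to the main transcript, so the split between them varied between mice. Lama3, the alpha chain, had 1.28 ± 0.260 TPM over WT mice and 1.15 ± 0.262 TPM over KO mice, with a log2 fold change of -0.08 ± 0.17, and its values overlapped throughout.

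**Figure D2:**
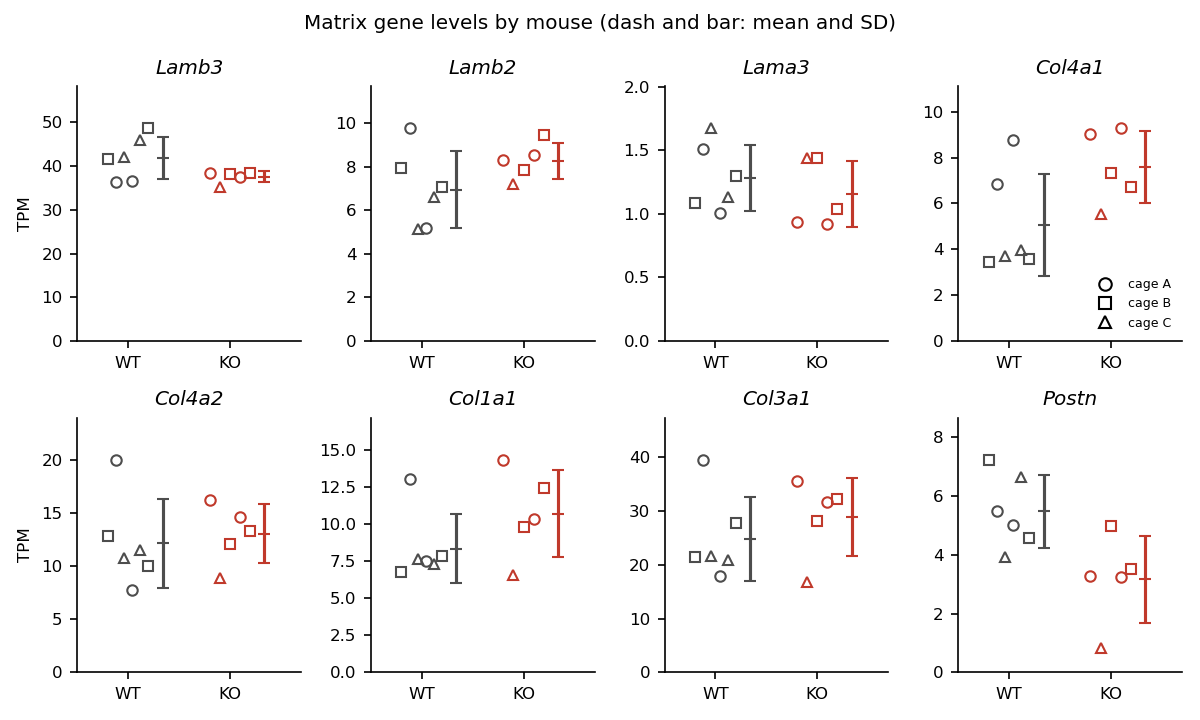
TPM of 8 matrix genes in each mouse, with marker shapes for cages and the mean ± SD of each genotype beside the points. Genotypes overlap in every panel, Col4a1 is high in both genotypes of cage A, and KO-3 is lowest for Postn.

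Type IV collagen forms the covalent network of the basement membrane, and its genes lie in pairs that start head to head. Col4a1 and Col4a2, which encode the chains of the ubiquitous heterotrimer, gave unlike values in the genotype comparison, a contrast between genes that was not tested. Col4a1 (chromosome 8, 11198423 to 11312826, minus strand) was at 3.46, 6.86, 3.71, 8.76, 3.95 and 3.59 TPM in the WT mice and at 9.02, 5.52, 7.33, 9.27 and 6.73 TPM in the KO mice. The 4 WT mice of cages B and C were below every KO mouse, and the WT mice of cage A were among the KO values. Its mean was 5.05 ± 2.22 TPM over WT mice and 7.57 ± 1.58 TPM over KO mice, with a log2 fold change of 0.54 ± 0.14 (limma FDR 1.00). In cages A, B and C the KO mean minus the WT mean was 0.22, 0.90 and 0.48 on the log2 scale.

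Col4a2 (chromosome 8, 11312805 to 11449287, plus strand) was at 12.9, 20.007, 10.8, 7.80, 11.5 and 9.996 TPM in the WT mice and at 16.3, 8.90, 12.1, 14.6 and 13.3 TPM in the KO mice. WT-5 was highest and WT-7 lowest of all 11, the groups overlapped throughout, and the log2 fold change was 0.09 ± 0.21. It was -0.13 without WT-7. The ratio of Col4a1 to Col4a2 was 0.268 to 0.359 in WT mice other than WT-7, where it was 1.12, and 0.504 to 0.633 in KO mice.

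The annotated first bases of these neighbours overlap by 22 bases, as the RefSeq starts on GRCm38.p6 give them, at chr8:11312805-11312826. The sequence is shown because both transcripts begin in it, and it is read on the plus strand, from the first base of Col4a2 to the first base of Col4a1, with the GC box letters GGGCGG in capitals.
Col4a1-Col4a2 overlap: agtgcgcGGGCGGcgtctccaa
The start of each gene thus lies within the other, on opposite strands. The ratio of their levels given above carries the quantification limit of Col4a1 described next, and its differences between mice and genotypes were not tested.

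The authors' deposited variances set a limit on Col4a1. For its transcript the technical variance, estimated from the quantification itself, was 1.83 and the observed variance between mice was 0.155. For Col4a2 they were 0.00135 and 0.0719, so that its level was determined far more finely. A technical variance above the observed one was not particular to Col4a1. It was found for 11 matrix transcripts, 18.3% of those with a deposited p, beside 20.8% of all transcripts with one. The authors' deposited table gave Col4a1 p = 0.627 and Col4a2 p = 1. Of the other pairs, Col4a5 was at 1.04 ± 0.233 TPM over WT mice and 0.937 ± 0.191 TPM over KO mice (log2 fold change -0.10 ± 0.19), and its neighbour Col4a6, whose RefSeq start is 1342 bases away on chromosome X, was at 0.298 ± 0.0903 and 0.338 ± 0.0683 TPM and was not tested. Col4a3 and Col4a4, known from kidney and lung basement membrane, were below 0.2 TPM in every mouse.

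**Figure D3:**
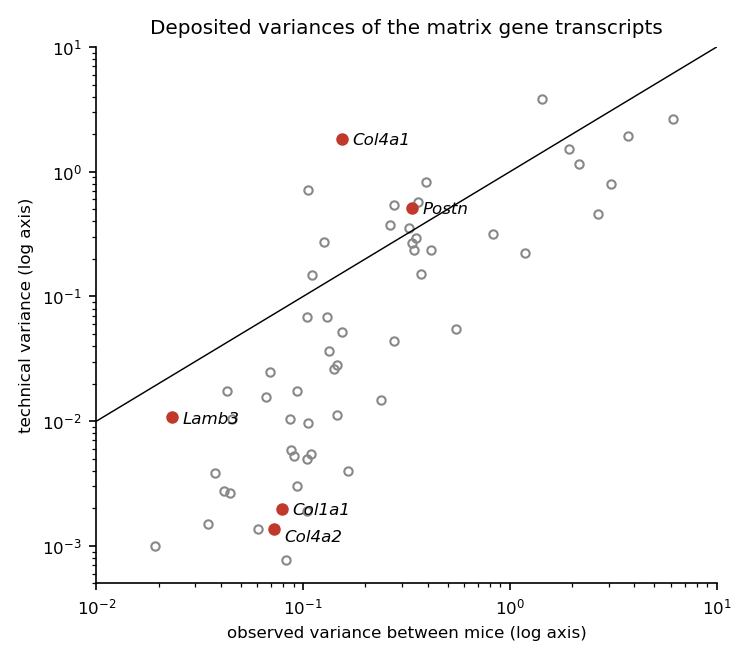
Technical variance against observed variance between mice of matrix gene transcripts with both values in the authors' deposited table, on log axes, with the line where they are equal. Col4a1 and Postn lie above the line, and Lamb3, Col1a1 and Col4a2 lie below it.

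The other basement membrane genes had small values that did not pass the test. Lamb2, the beta chain of vascular and muscle laminins, was at 6.95 ± 1.76 TPM over WT mice and 8.27 ± 0.835 TPM over KO mice, with a log2 fold change of 0.23 ± 0.15. It is the only tested matrix gene on chromosome 9, which carries Nrg4. Of the untested ones there, Col5a3, Col6a5, Col6a6 and Col12a1 had a higher mean TPM in KO, and Col6a4 and Col7a1 a lower one. The part of position was not tested. Without WT-5, Lamb2 was among the genes with an unadjusted p below 0.05. Lama4, a chain of endothelial and muscle laminins, had a log2 fold change of 0.18 ± 0.18, the laminin and collagen linker Nid1 one of 0.16 ± 0.17, and Lama5, the alpha chain of mature epithelia, one of 0.08 ± 0.19. Lamc1, the gamma chain shared by most laminins, stood at -0.02 ± 0.22. Of the 11 tested basement membrane genes, 6 had positive and 5 negative values, with a median of 0.08.

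The interstitial collagens had small positive values, none past the threshold. Of 26 genes 9 were tested, 8 positive and 1 negative, with a median log2 fold change of 0.13. Col1a1, a chain of type I collagen, was at 6.74, 13.02, 7.62, 7.51, 7.28 and 7.85 TPM in the WT mice and at 14.3, 6.57, 9.79, 10.3 and 12.4 TPM in the KO mice. The groups overlapped, with WT-5 high among WT mice and KO-3 low among KO mice. The log2 fold change was 0.28 ± 0.18.

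Col3a1, the type III chain and the most abundant collagen gene here, was at 21.5, 39.5, 21.6, 17.9, 20.9 and 27.7 TPM in the WT mice and at 35.6, 16.8, 28.1, 31.7 and 32.2 TPM in the KO mice. WT-5 was the highest and KO-3 the lowest of all mice, and the log2 fold change was 0.15 ± 0.20. It was -0.03 without WT-7. Col1a2 (0.13 ± 0.15), Col5a2 (0.20 ± 0.20), Col5a1 (0.10 ± 0.19) and the type VI chains Col6a3 (0.24 ± 0.22), Col6a1 (0.13 ± 0.24) and Col6a2 (0.08 ± 0.27) were likewise positive. WT-5 had the highest value of these 6 genes except for Col1a2, where KO-1 did, and WT-7 or KO-3 had the lowest except for Col5a2, where WT-10 did. Col9a2, a chain of the fibril-associated type IX collagen, was the negative one, at -0.07 ± 0.18.

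Of the 12 interstitial glycoprotein and proteoglycan genes 9 were tested, 7 positive and 2 negative, with a median of 0.10. The lowest log2 fold change was that of Postn (chromosome 3, 54361109 to 54391037, plus strand), which encodes periostin, a secreted matricellular protein of fibroblasts. It was at 7.22, 5.50, 3.94, 5.01, 6.62 and 4.58 TPM in the WT mice and at 3.27, 0.831, 4.96, 3.26 and 3.50 TPM in the KO mice. KO-4 lay within the WT values and KO-3 far below the rest. The mean was 5.48 ± 1.24 TPM over WT mice and 3.16 ± 1.48 TPM over KO mice, with a log2 fold change of -0.91 ± 0.27 (limma FDR 1.00). It was -0.52 without KO-3. Its transcript had a technical variance of 0.512 and an observed variance of 0.336 in the authors' deposited table, with p = 0.0982 there. Of the 60 matrix transcripts with a p in that table, 0 had a q below 0.05, beside 5 of all 14763 transcripts with a p.

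The other genes of this class did not pass the test, with log2 fold changes between -0.13 and 0.34. Sparc, a collagen-binding glycoprotein, was at 8.05, 11.7, 7.96, 7.43, 7.86 and 4.46 TPM in the WT mice and at 10.01, 5.35, 11.5, 15.4 and 11.2 TPM in the KO mice. The groups overlapped, with WT-5 highest among WT mice and KO-3 lowest among KO mice, and the log2 fold change was 0.34 ± 0.25. It was 0.15 without WT-11 and 0.63 without KO-3. The small proteoglycan genes Lum, Bgn and Dcn had 0.24 ± 0.23, 0.10 ± 0.22 and 0.04 ± 0.17. Dcn, which encodes decorin, was the most abundant matrix gene, with 49.9 ± 13.8 TPM over WT mice and 52.5 ± 9.82 TPM over KO mice. The elastic fibre genes Fbln1, Fbn1 and Eln had 0.22 ± 0.36, 0.01 ± 0.20 and -0.13 ± 0.33. Fn1, which encodes fibronectin, was listed at 0 in WT-7 and reached 4.36 TPM in WT-5, with 0.17 ± 0.55.

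Upstream sequence is shown for Postn, the interstitial gene with the lowest log2 fold change, beside Col3a1 and Bgn, an abundant interstitial collagen and proteoglycan gene, to set their different starts side by side. Postn has another RefSeq start upstream, and the window before it, chr3:54359167-54359266, held none of the motifs searched and is not printed. Each sequence is the 100 bases before a RefSeq start on GRCm38.p6, on the plus strand, at chr3:54361007-54361106, chr1:45311438-45311537 and chrX:73483501-73483600. Capitals mark the TATA letters TATAAA and the GC box letters GGGCGG, the latter also as CCGCCC where they lie on the other strand.
Postn: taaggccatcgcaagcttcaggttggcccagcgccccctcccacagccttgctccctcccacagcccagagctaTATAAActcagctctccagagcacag
Col3a1: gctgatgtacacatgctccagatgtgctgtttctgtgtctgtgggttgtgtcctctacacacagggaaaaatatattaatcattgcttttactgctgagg
Bgn: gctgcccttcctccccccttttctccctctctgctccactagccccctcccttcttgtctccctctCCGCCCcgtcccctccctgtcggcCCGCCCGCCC
The Postn window shown held TATAAA once, the Bgn window held the GC box 3 times, with 2 of the copies overlapping, and the Col3a1 window held no match to either, nor to CCAAT or TGANTCA. Over the 250 bases before each start and on both strands, GGGCGG was found in 33 of 61 matrix gene promoters (54.1%, for the 54 genes with an entry) and in 32.7% of all promoters. TATAAA was found in 6 of the 61 and in 12.4% of all, CCAAT in 19 and in 33.9%, and the AP-1 letters TGANTCA in 1 and in 6.75%. A match describes letters and is not a bound site.

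None of the inhibitors and receptors passed the test. The Timp genes encode inhibitors of matrix metalloproteinases, and all 4 were tested. Timp4 was at 1.57 ± 0.411 TPM over WT mice and 1.16 ± 0.155 TPM over KO mice, with a log2 fold change of -0.30 ± 0.15. Timp1, the inducible one, stood at -0.17 ± 0.28, Timp2 at 0.13 ± 0.16, and Timp3, which binds to the matrix and was the most abundant at 22.9 ± 2.89 TPM in WT, at 0.03 ± 0.13.

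Pdgfra, the platelet-derived growth factor receptor of fibroblasts, was at 1.44 ± 0.539 TPM over WT mice and 1.602 ± 0.433 TPM over KO mice (0.10 ± 0.22). Pdgfrb, that of pericytes and smooth muscle, was at 2.15, 2.98, 1.40, 1.95, 1.35 and 1.80 TPM in the WT mice and at 2.47, 1.52, 2.04, 4.37e-05 and 1.91 TPM in the KO mice. The value of KO-8 is in effect listed at 0, while the pericyte markers summed to 38.9 TPM in the same mouse, the highest among KO mice. The log2 fold change of Pdgfrb was -0.44 ± 0.43 and became 0.04 without KO-8.

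The second question was whether basement membrane and interstitial genes differed in how KO compared with WT. Over the 10 basement membrane genes with a mean of at least 1 TPM, the mean log2 level was 2.66 ± 0.15 in WT (SD, n = 6) and 2.72 ± 0.11 in KO (SD, n = 5). Over the 18 interstitial genes it was 2.54 ± 0.40 and 2.66 ± 0.32. The basement membrane mean minus the interstitial mean was 0.12 ± 0.26 in WT and 0.06 ± 0.22 in KO, a difference far smaller than the spread between mice. By single genes, 6 of 11 basement membrane and 15 of 18 interstitial genes had positive log2 fold changes, with medians of 0.08 and 0.13. Both medians turned negative without WT-7, to -0.11 and -0.08, and the basement membrane median was also negative without KO-1 (-0.0095) or WT-11 (-0.025).

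The interstitial mean varied more between mice of a genotype than between genotypes. It was 2.64, 3.27, 2.35, 2.11, 2.42 and 2.42 in the WT mice and 2.84, 2.13, 2.60, 2.94 and 2.79 in the KO mice. WT-5 was highest and WT-7 lowest of all, with KO-3 next to WT-7, and the WT mice WT-5 and WT-7 shared cage A. The basement membrane mean ran over a narrower span, from 2.49 in WT-7 to 2.92 in WT-5. As a result, the difference between the classes was lowest in WT-5, at -0.35, and highest in KO-3, at 0.42, with WT-7 at 0.38.

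**Figure D4:**
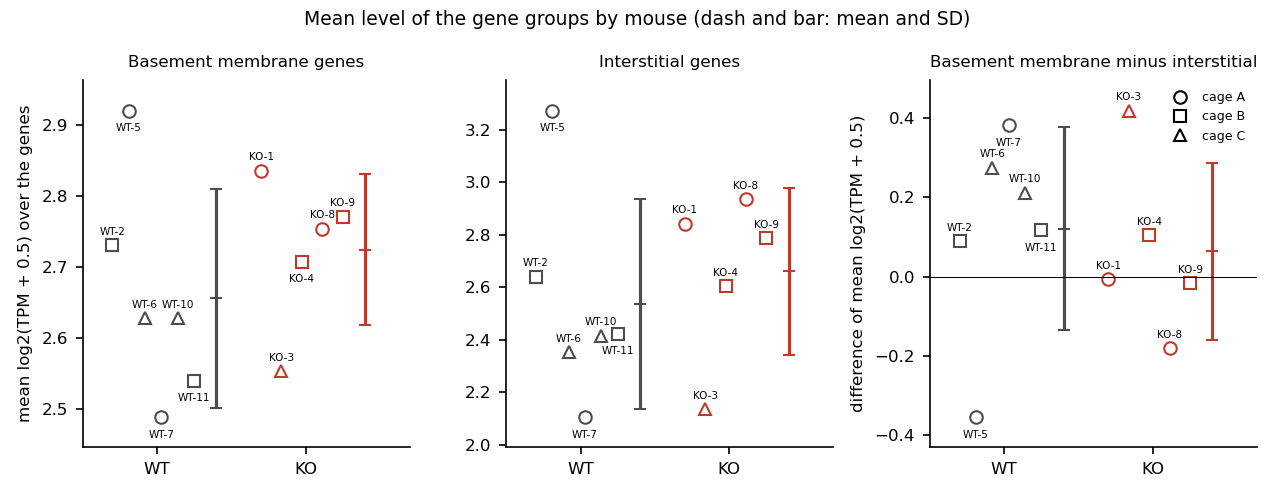
Mean log2(TPM + 0.5) per mouse over the 10 basement membrane genes, the 18 interstitial genes, and the difference of the 2 means, with marker shapes for cages and the mean ± SD of each genotype. WT-5 and WT-7 span the whole range of the interstitial mean, and the difference runs from -0.35 in WT-5 to 0.42 in KO-3.

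WT-5 had the highest value of all mice in 19 of the 36 tested matrix genes, beside 14.7% of all genes, and in 12 of the 18 interstitial genes. WT-7 had the lowest in 11 of 36, beside 7.4% of all genes, and KO-3 in 10 of 36, beside 9.98%. Timp4 ran the other way in WT-5, at 0.998 TPM, the lowest WT value. Markers of pericytes and endothelium were likewise at their extremes in WT-5 and WT-7, but not in KO-3. The 6 pericyte markers summed to 50.9 TPM in WT-5 and 10.4 TPM in WT-7, the highest and lowest of all mice, with 23.1 to 38.9 TPM in KO (31.7 TPM in KO-3), and 2 of the 6 had a higher mean in KO. Rgs5 made up most of that sum, and Abcc9 was at 0 in all mice. The 11 endothelial markers summed to 21.5 TPM in WT-5 and 6.47 TPM in WT-7, again the extremes, with 11.9 TPM (KO-3) to 20.5 TPM in KO. Of the 11, 8 had a higher mean in KO, and Tek, Prox1, Flt1, Kdr and Tie1 had means below 1 TPM in both groups. Smooth muscle markers ranged from 3227 TPM (WT-7) to 5995 TPM (WT-5) in WT. In KO they ranged from 3095 TPM (KO-3) to 5388 TPM, and 8 of 9 had a higher mean there. The 9 fibroblast markers outside the matrix genes summed to 149 to 219 TPM in WT and 121 TPM (KO-3) to 231 TPM in KO. All 9 had a higher mean in KO, some by very little. Gsn made up most of the sum, at 143.6 TPM over WT mice and 144.0 TPM over KO mice. Pi16, Gli1 and Mfap5 had means below 1 TPM in both groups. No share of all genes was set beside these marker counts, and the part of these cell types in the matrix values was not tested.

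**Figure D5:**
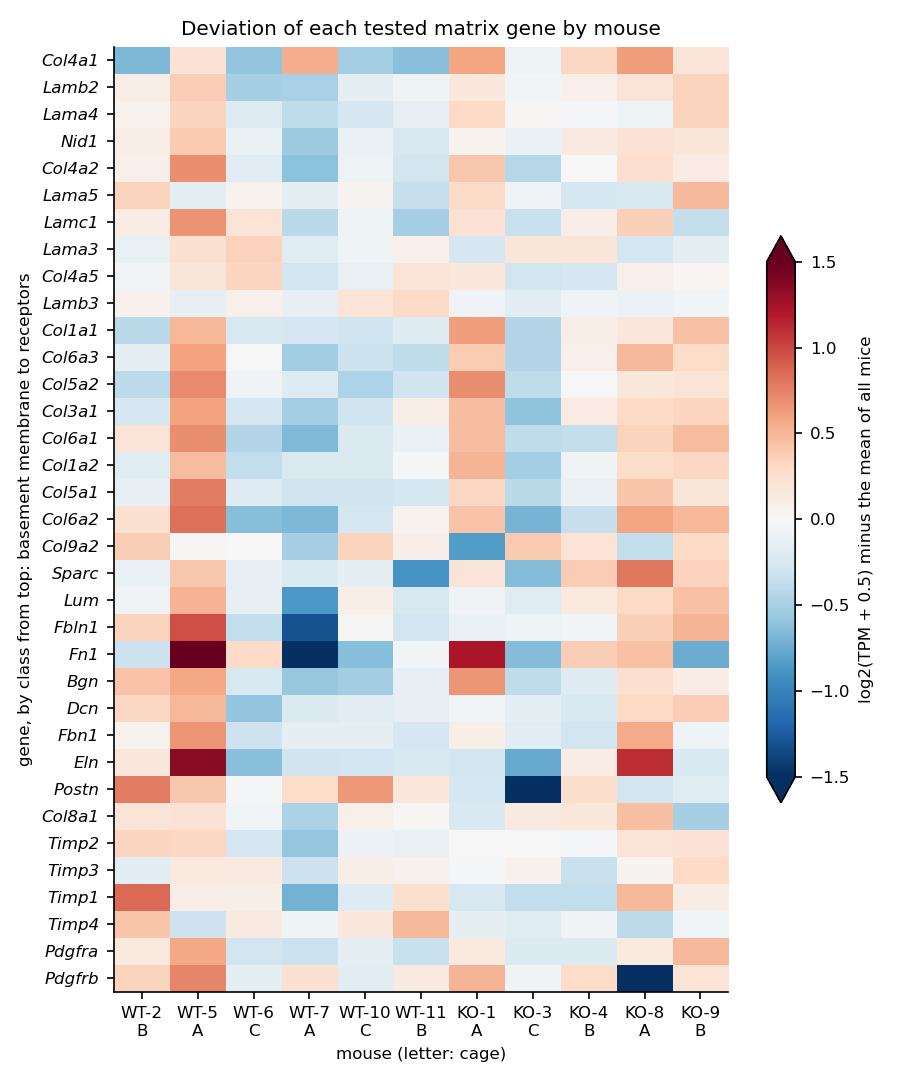
Deviation of log2(TPM + 0.5) from the mean of all mice for 35 of the 36 tested matrix genes (vertical axis, by class) in each mouse (horizontal axis, with its cage), red above and blue below the mean, with the colour scale ending at 1.5. The WT-5 column is red for most collagens and glycoproteins and blue for Timp4, and the WT-7 and KO-3 columns are mostly blue.

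Markers of tissues that a colon sample could carry along were low. Squamous epithelium markers summed to at most 1.19 TPM, mesothelium markers to at most 3.84 TPM with Wt1 at 0, and skeletal muscle markers to at most 11.2 TPM with Myh4 at 0. Adipocyte markers were at 5.63 TPM (WT-7) to 18.4 TPM in all mice but WT-11, which had 74.7 TPM. Leukocyte markers spanned 31.2 to 143 TPM in WT and 45.2 to 153 TPM in KO. Enteric glia and neuron markers spanned 18.2 TPM (WT-7) to 37.2 TPM (KO-9) over all mice.

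The third question was whether cages differed in matrix genes. None of the 36 passed the F test on cage (limma, smallest FDR 0.263), nor did any of all genes (0%), and 3 of 36 (8.33%) had an unadjusted p below 0.05, beside 12.1% of all genes. These were Col4a1 (limma FDR 0.263), Col9a2 (limma FDR 0.346) and Col1a2 (limma FDR 0.374). Col4a1 was at 8.47 ± 1.10 TPM in cage A (SD, n = 4), 5.28 ± 2.04 TPM in cage B (n = 4) and 4.39 ± 0.987 TPM in cage C (n = 3). Col1a2 followed the same order, with 17.6 ± 3.83, 14.5 ± 2.28 and 11.0 ± 1.17 TPM. Col9a2 was lowest in cage A, with 1.18 ± 0.413 TPM against 2.11 ± 0.212 and 2.11 ± 0.371 TPM. The mean of cage A was the highest of the 3 for 22 of 36 matrix genes, beside 42.1% of all genes. In all of these values cage A cannot be told apart from sex, as Eif2s3y was present in its mice only. Cage A includes WT-7, with the lowest interstitial mean, and without it 15 of the 36 had an unadjusted p below 0.05, beside 14.6% of all genes in that fit.

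A further question was whether cages disagreed on the genotype difference. In the F test on the interaction no matrix gene passed (limma, every FDR 1.00, beside 0.0186% of all genes), and 1 of 36 (2.78%) had an unadjusted p below 0.05, beside 3.97% of all genes. This was Postn, with KO minus WT log2 differences of -0.61, -0.42 and -2.08 in cages A, B and C, the last resting on KO-3 as the only KO mouse. Without WT-5, 6 of 34 matrix genes were below that p, beside 4.48% of all genes in that fit. The next by p were Sparc, at 0.40, 0.86 and -0.52 in cages A, B and C, Col4a1 and Lamb3, the last at 0.06, -0.23 and -0.31. In cages A, B and C, 28, 22 and 13 of the 36 genes were higher in KO, with median log2 differences of 0.19, 0.03 and -0.14, while 49.0%, 44.0% and 53.4% of all genes were higher. Interstitial genes gave medians of 0.29, 0.12 and -0.17, and basement membrane genes 0.16, 0.11 and -0.10. The sign of both classes in cage C was thus that of KO-3 against 2 WT mice.

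Genes that build, cross-link, degrade or sense the matrix were set beside these. Of 158 genes on 6 lists, 95 were tested, 66 positive and 29 negative, with a median of 0.08. Over all genes 46.8% were positive, with a median of -0.01. The directions on these lists were not counted with single mice left out, such as WT-7. None passed the threshold and none had an unadjusted p below 0.05 by limma, beside the 3.1% of all genes given above. Collagen-modifying enzymes were 11 positive and 5 negative of 16 tested from 29, with the prolyl hydroxylase gene P3h2 at 0.37 ± 0.24 and the lysyl hydroxylase gene Plod1 at 0.21 ± 0.15. Matrix-degrading enzymes and their regulators were 9 and 5 of 14 from 31, with the membrane-bound proteases Mmp17 at 0.27 ± 0.22 and Mmp15 at -0.09 ± 0.08.

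Matrix receptors were 16 positive and 6 negative of 22 tested from 28. Itgb5, an integrin chain that binds vitronectin, stood at 0.25 ± 0.14. Itgb4, the hemidesmosomal integrin chain that binds epithelial laminin, was at 3.03 ± 0.686 TPM over WT mice and 2.36 ± 0.435 TPM over KO mice, with a log2 fold change of -0.31 ± 0.18. Further basement membrane genes were 4 and 2 of 6 from 17, with Tinagl1 at -0.13 ± 0.09 and the heparan sulfate proteoglycan gene Agrn at 0.19 ± 0.19. Further interstitial genes were 16 and 5 of 21 from 34, with the thrombospondin gene Thbs4 at 166 ± 9.67 TPM over WT mice and 149 ± 16.9 TPM over KO mice (-0.17 ± 0.09) and the proteoglycan gene Prelp at 0.25 ± 0.16. TGF-beta and PDGF signalling genes were 10 and 6 of 16 from 19, with the ligand gene Tgfb2 at 0.36 ± 0.19 and the signal transducer gene Smad2 at -0.17 ± 0.10.

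The 40 matrix genes that were not tested were low throughout. Of these, 32 stayed below 1 TPM in every mouse, none had a mean of 1 TPM, and the highest single value was 2.05 TPM, for the fibril-associated collagen gene Col12a1 in WT-5. The type VI chain gene Col6a5, named after its values were seen and also on chromosome 9, was at 0.0281 to 0.110 TPM in WT and 0.111 to 0.244 TPM in KO. It was the only one of the 72 matrix genes above 0 in any mouse whose groups did not overlap, beside 0.199% of all such genes. Fitted with no filter it had a log2 fold change of 0.21 ± 0.05 (limma FDR 1.00) and was the fourth matrix gene with an unadjusted p below 0.05, beside 3.43% of all genes in that fit. The authors' deposited table gave its transcript a technical variance of 0.356, above the observed variance of 0.323. The quantification thus limits Col6a5 as it does Col4a1 and Postn. The untested genes include 17 of 26 interstitial collagens, 10 of 21 basement membrane genes and 9 of 10 other collagens. Lamb1, Col2a1, Col19a1 and Col9a1 were listed at 0 in all mice. Lamb1 encodes the beta chain found in many laminins, so a value of 0 beside 3.22 ± 1.16 TPM of its usual partner Lamc1 in WT may be a failed estimate. In all, 22 matrix genes were listed at 0 in at least 1 mouse, and Fn1 was the tested one among them. Of the other collagens only Col8a1, a short-chain collagen of vessels, was tested, at 1.12 ± 0.256 TPM over WT mice and 1.15 ± 0.407 TPM over KO mice (0.02 ± 0.23).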

How the data were processed

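The submitters' processing notes name CASAVA, kallisto, sleuth and the mm10 build. Their versions, and any rescaling of the columns, are not given in the sources used. The deposited table holds TPM per principal transcript and mouse from polyadenylated RNA, and, per the file headers, the authors' p-value, q-value, log2 ratio and variance score columns (observed and technical variance). Of its 29213 lines, 405 repeats were dropped, and TPM was summed per gene. The 10756 genes reaching 1 TPM in 5 or more mice were fitted on log2(TPM + 0.5) by limma 3.58.1 (R 4.3.3, trended variance) with terms for genotype and cage, and p-values were adjusted by Benjamini-Hochberg over all of them. F tests covered both cage terms and both interaction terms. On the log2(TPM + 0.5) scale, changes of low genes are understated. The fit was also run on simulated data with independent normal noise for each gene. That run held no separate quantification error and no noise shared between genes, so it does not cover these limits of the data. TPM carries no depth, so precision is limited here by the number of mice and by the quantification itself, for which the deposited technical variance stands.

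The matrix genes, classes, pathway lists and marker lists were chosen with earlier results of these data known. Named genes are, per class, the 3 with the smallest p and the 2 most abundant, with the Pdgf receptors, Postn, Sparc and the type IV pairs, the 4 with the smallest p in the cage and interaction tests, and 2 per pathway list; other genes named were chosen after their values were seen. 1 gene is kept in all counts but its own result is not reported here. Dpt and Mfap5 stand both on the fibroblast marker list and on the list of further interstitial genes. Coordinates are from GENCODE M21 (GRCm38, the mm10 assembly) and promoters from RefSeq. Alternatives changed the pseudocount (0.1 or 1), the filter, the scaling, the cage term and the mice. The settings that left out both WT-5 and WT-7, or members with a technical above the observed variance, were chosen after seeing the data.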

Additional observations from a re-analysis of the deposited data

Results flagged for a closer look

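Within each genotype, 52 sets of values were examined for a mouse far from the others, and 6 had one by Dixon's criterion. For independent sets of normal values, chance alone gives about 1 in 20. These sets share mice and some of their genes were named for a small p, so 6 of 52 cannot be weighed against that rate. WT-5 stood apart from the other WT mice in 2 of the 6. Col1a1 was at 13.02 TPM in WT-5 against 6.74 to 7.85 TPM in the other WT mice, and Col5a2 at 5.24 against 2.04 to 2.89 TPM. WT-7 stood apart for Col8a1, at 0.653 against 1.06 to 1.36 TPM, and for the ratio of Col4a1 to Col4a2, at 1.12 against 0.268 to 0.359. Among KO mice, Postn was at 0.831 TPM in KO-3 against 3.26 to 4.96 TPM, and Pdgfrb was at 4.37e-05 TPM in KO-8 against 1.52 to 2.47 TPM.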

How the results depend on the processing

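No matrix gene passed the threshold under any alternative. Over all genes 4 passed; the number was 1 with at least 1 TPM required in all mice, 2 with no filter, 2 without both WT-5 and WT-7, and 2 to 4 with single mice left out. Matrix genes with an unadjusted p below 0.05 numbered 3; 1 was left when Col4a1, Postn and Pdgfra, whose technical variance exceeds the observed one, were not counted, and 3 to 5 with single mice left out (5 without WT-5, Lamb2 and Timp4 being added). With single mice left out, the median log2 fold change ran from -0.10 to 0.22 for matrix genes, from -0.11 to 0.14 for basement membrane genes (negative without WT-7, KO-1 or WT-11) and from -0.080 to 0.27 for interstitial genes. The matching cage counts were 2 to 15 and interaction counts 0 to 6, and with no filter they were 6 and 4 of 72. The 15 without WT-7 stand beside 14.6% of all genes, and the 6 without WT-5 beside 4.48%. For the other alternative cage and interaction counts, and for the genotype counts with mice or members left out, no share of all genes was set beside them.

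Of 410 values of 22 named genes under alternatives, 382 kept their direction and 28 reversed, in 10 genes. Ranges with single mice left out were -0.12 to 0.22 for Bgn, -0.032 to 0.31 for Col3a1, -0.13 to 0.25 for Col4a2, -0.11 to 0.15 for Col8a1, -0.17 to 0.043 for Col9a2, -0.049 to 0.16 for Dcn, -0.020 to 0.24 for Pdgfra, -0.69 to 0.040 for Pdgfrb, -0.012 to 0.24 for Timp2 and -0.057 to 0.13 for Timp3. Without both WT-5 and WT-7, Bgn was at -0.12, Col4a2 at -0.031, Col8a1 at -0.12, Col9a2 at 0.10, Pdgfrb at 0.046 and Timp3 at -0.0012. The cause of these reversals was not tested. Without reversal, Col4a1 stayed at 0.47 to 0.63, Postn at -1.06 to -0.52, Sparc at 0.15 to 0.63, Col1a1 at 0.17 to 0.43, Col1a2 at 0.014 to 0.25, Col5a2 at 0.079 to 0.33, Col6a3 at 0.058 to 0.41, Lum at 0.032 to 0.43, Col4a5 at -0.20 to -0.012 and Timp1 at -0.37 to -0.012 with single mice left out. No paired analysis was possible because WT and KO mice share no replicate numbers; cage stood in the fit instead. Depth is unknown, and no log2 fold change was given for untested matrix genes other than Col6a5.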
